A study of Homo sapiens with 372 samples.

Results

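The genes described here are the endoplasmic reticulum chaperones and folding enzymes HSPA5, HSP90B1, PDIA3, PDIA4, PDIA6, CALR, CANX, DNAJB9 and SDF2L1, together with the transcription factor gene XBP1. They were chosen by symbol, and all 10 were found among the 9664 genes listed. All 10 also passed a detection filter (a value above 0 in more than 30% of a condition's cells, for 1 condition or more), as did 9655 genes in all. The cells were of A2780, an established human ovarian cancer line cultured in medium with fetal bovine serum, and no genotype or other alteration was given to any group. Ctrl cells received no drug and gave 46 cells. Paclitaxel, which stabilizes microtubules, was given at 5 nM for 16 h (Pac16h, 56 cells) or 48 h (Pac48h, 53 cells). Celecoxib, a cyclooxygenase inhibitor, was given at 75 µM for 2 h (Cele2h, 63 cells) or 16 h (cele16h, 61 cells). Both drugs were given together for 16 h in PacCele16h (59 cells). Of the 372 cells in the labels, 338 had values.

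Proteins that enter the secretory pathway fold in the lumen of the endoplasmic reticulum, where Hsp70 and Hsp90 family chaperones hold unfolded chains, disulfide isomerases pair cysteines, and the lectins calnexin and calreticulin retain glycoproteins until they are folded. When unfolded chains build up, the sensors IRE1, PERK and ATF6 start the unfolded protein response. IRE1 splices XBP1 mRNA and ATF6 is cut to release a transcription factor, and both raise chaperone genes through the endoplasmic reticulum stress element (ERSE), whereas PERK acts through ATF4 and CHOP. The values here are per gene and do not separate spliced from unspliced XBP1 mRNA.

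The promoter sequences of the members are shown first because the members differed in this element and, as described further on, in their levels. RefSeq promoter windows (GRCh38.p14, from 250 bases before to 50 after a gene start) were searched on both strands for ERSE, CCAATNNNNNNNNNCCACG, and for ERSE-II, ATTGGNCCACG. Of 35116 windows, 27 held ERSE (0.0769%) and 19 held ERSE-II (0.0541%). By gene, 25 and 19 of the 27305 genes with a window held them. PDIA3 had no window. Of the 9 members with a window, 6 had a match to ERSE and SDF2L1 had a match to ERSE-II. PDIA4 and DNAJB9 had no match to either in these windows. The stretches below have the fixed bases of the motif in capitals, read 5′ to 3′ on the strand that carries the motif.
HSPA5, chr9:125241386-125241414, minus strand: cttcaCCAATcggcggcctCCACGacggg
HSP90B1, chr12:103930211-103930239, plus strand: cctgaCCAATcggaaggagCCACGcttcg
HSP90B1, chr12:103930316-103930344, minus strand: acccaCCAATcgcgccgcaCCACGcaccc
PDIA6, chr2:10812848-10812876, minus strand: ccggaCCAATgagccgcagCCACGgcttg
CALR, chr19:12938379-12938407, minus strand: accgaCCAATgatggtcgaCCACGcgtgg
CANX, chr5:179698773-179698801, plus strand: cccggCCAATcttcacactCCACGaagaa
XBP1, chr22:28800598-28800626, minus strand: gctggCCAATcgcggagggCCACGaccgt
SDF2L1 (ERSE-II), chr22:21642109-21642129, minus strand: ttttgATTGGtCCACGcttcc

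The centre of the motif lay 57 bases before the RefSeq start of HSPA5, 43 before that of XBP1, 77 before that of PDIA6, 142 before that of CANX and 216 before that of CALR. HSP90B1 held a match on each strand, centred 185 and 80 bases before the start. In the GENCODE version 44 models, the matches of HSPA5, CALR, XBP1 and SDF2L1 lay outside the gene span, both matches of HSP90B1 and that of CANX lay in an exon of at least 1 longer transcript, and that of PDIA6 lay in an intron of longer transcripts. A match describes the letters of the window and was not tested as a binding site. The HSPA5 promoter is given at greater length, from 250 to 41 bases before its RefSeq start, because HSPA5 was above the limit used below in both cele16h and PacCele16h at the same total per cell.
HSPA5 promoter, chr9:125241384-125241593, minus strand: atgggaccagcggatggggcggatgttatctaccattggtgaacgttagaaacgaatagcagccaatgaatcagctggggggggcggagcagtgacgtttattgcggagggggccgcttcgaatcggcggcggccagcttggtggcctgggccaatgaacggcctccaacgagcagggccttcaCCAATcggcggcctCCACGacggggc

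**Figure D1:**
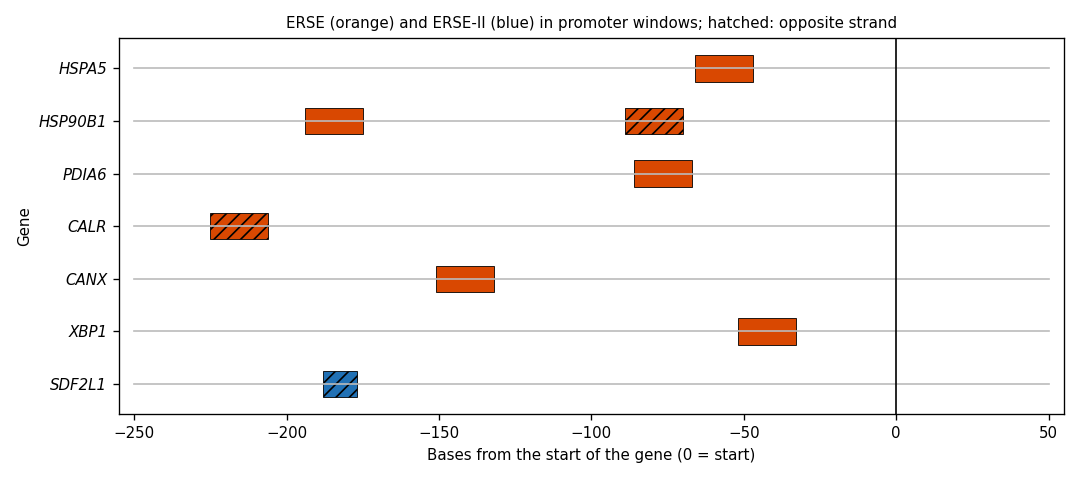
ERSE (orange) and ERSE-II (blue) matches in the promoter windows of the 7 members that held one, with the distance from the RefSeq gene start in bases on the horizontal axis and 1 gene per line; hatched matches lie on the strand opposite to the gene. The match of XBP1 was centred 43 bases before the start and that of CALR 216 bases before it.

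The measurement was Smart-seq2, which copies full-length polyA-tailed RNA, on single cells captured with the Fluidigm C1 system. The labels name no culture or capture as a replicate, so a condition counted as 1 sample, and cells are not replicates. No test between conditions was made, and every SD is a spread over cells. The deposited E-value of a gene in a cell is log2(N/10 + 1). N stands for its TPM relative to the spike-in RNA found in that cell. On this scale a gene is read against an RNA amount added to each well. The total of N over the genes listed, as a median over cells, was 0.504 times the Ctrl total in Pac16h, 0.643 in Pac48h, 0.591 in Cele2h, 0.348 in cele16h and 1.40 in PacCele16h. The members are therefore also given after bringing all cells to 1 common total (the same total per cell), where a gene is read against the other RNA of its cell. A change in captured RNA per cell and a change in the spike-in RNA recovered cannot be told apart in these values. The difference in mean E-value was called past the limit when it was over log2 of 1.5 (0.58) in size, and members are counted beside the percentage of the 9655 genes past the same limit. All differences from Ctrl share the same 46 Ctrl cells. The library numbers of the cells fall in 4 blocks of 96. All Ctrl cells lay in block 4, which they shared with 31 Pac48h cells alone, so block and drug cannot be told apart in the other treatments. The median number of genes detected was between 6126 and 6630 per cell in the 6 conditions. The line's own markers could be checked in part only, since 2 of 8 (KRT18 and VIM) were listed. Of 10 markers of immune, stromal, endothelial and red blood cells, LYZ and COL1A2 were listed, with mean E-values of at most 0.24 and 0.96. KRT18 was also low, at 0.45 to 1.11, and LYZ was detected in 37.0% to 60.7% of a condition's cells. These markers therefore did not check the identity of the cells.

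Read against the spike-in, the members as a set were lower than in Ctrl under each single drug and higher under the combination. In Pac16h 9 of 10 members were below the limit and 0 above, with a median difference of -0.89, and 37.3% of all genes were below and 0.0932% above it. In Pac48h 6 were below and 0 above (median -0.64), beside 26.6% and 0.922% of all genes. In Cele2h 3 were below and 0 above (median -0.51), beside 25.7% and 1.12%. In cele16h 7 were below and 0 above (median -0.98), beside 43.9% and 0.383%. In PacCele16h 8 were above and 0 below (median 0.94), beside 30.4% of all genes above and 1.76% below, and the other two were CALR and SDF2L1. The medians over all genes were -0.41, -0.26, -0.26, -0.48 and 0.33 in the same order. The members' medians lay beyond these in every treatment and on the same side. The log2 of the total N relative to Ctrl was -0.99, -0.64, -0.76, -1.52 and 0.49. Genes near 0 can move little on the E-value scale, and 34.9% of all values were 0. The part of expression level in the members' larger medians was not tested. Against Pac16h and against cele16h, all 10 members were higher in PacCele16h past the limit, where 62.5% and 66.0% of all genes were. Between the times of a drug, PDIA4 was the 1 member higher past the limit in Pac48h than in Pac16h (7.89% of all genes), and HSP90B1 the 1 member lower in cele16h than in Cele2h (19.4%).

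With the same total per cell most of these differences were within the limit, and the members past it against Ctrl were HSPA5, DNAJB9, XBP1 and SDF2L1. Those of HSPA5, DNAJB9 and XBP1 in cele16h were within it as deposited, at -0.19, 0.13 and -0.52. In Pac16h XBP1 and SDF2L1 were below the limit and 0 members above it, beside 10.0% and 1.40% of all genes. In Pac48h 0 members were past it in either direction, beside 3.28% of all genes above and 5.78% below. In Cele2h SDF2L1 was below and 0 members above, beside 8.12% and 3.31%. In cele16h HSPA5, DNAJB9 and XBP1 were above and SDF2L1 below, beside 7.37% and 7.95%. In PacCele16h HSPA5 was above and SDF2L1 below, beside 5.96% and 5.80%. The count in PacCele16h depended on the block, with 0 above and 2 below in its 34 cells of block 1 and 3 above and 0 below in its 25 cells of block 3. The members' median differences were -0.26, -0.04, 0.03, 0.36 and 0.36 in the same order of treatments, and those of all genes lay between -0.07 and 0.03. The median share of a cell's total taken by the 10 members was 0.200% in Ctrl, 0.191% in Pac16h, 0.203% in Pac48h, 0.219% in Cele2h, 0.267% in cele16h and 0.235% in PacCele16h.

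**Figure D2:**
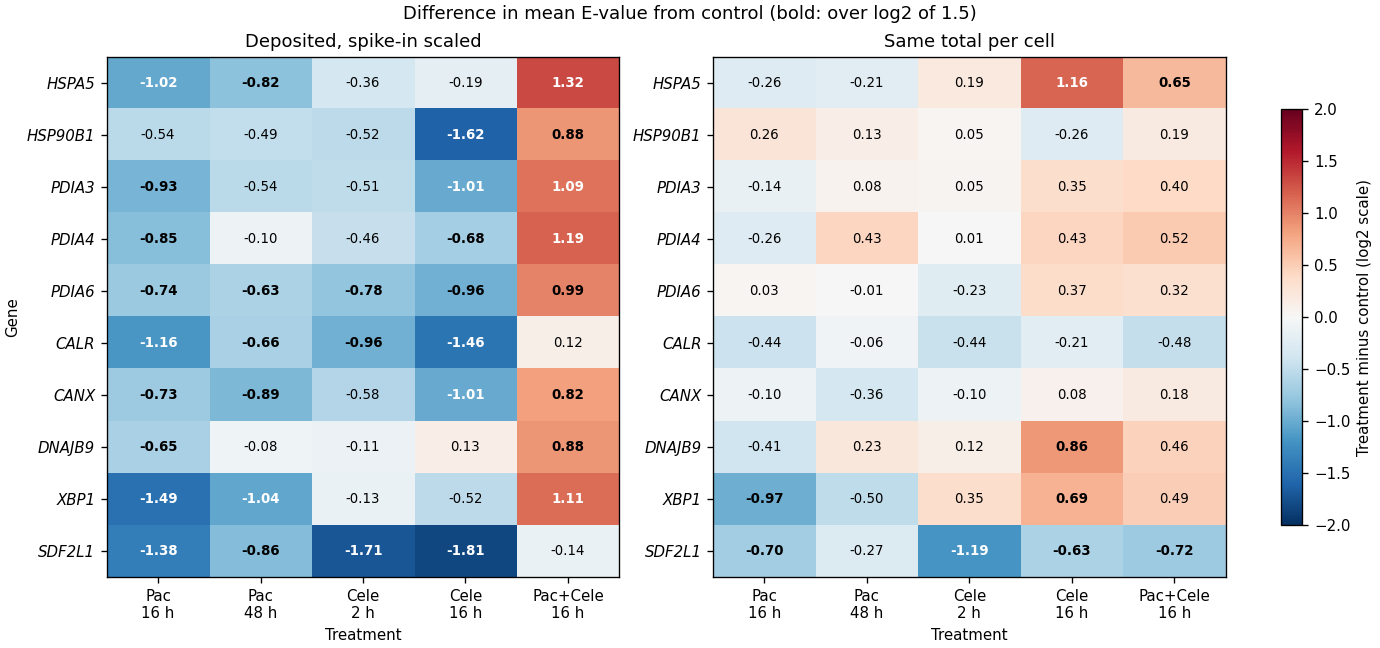
Difference in mean E-value of each treatment from Ctrl (log2 scale) for the 10 members, with the deposited spike-in scaled values on the left and the same total per cell on the right; bold values are past log2 of 1.5. PacCele16h was above Ctrl for 9 members on the left, whereas on the right HSPA5 was at 1.16 in cele16h and SDF2L1 was below Ctrl in all 5 treatments.

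HSPA5 (BiP, the Hsp70 chaperone of the endoplasmic reticulum and a binding partner of the stress sensors) lies at chr9:125234853-125241382 on the minus strand of hg38. Its deposited E-value ran from 2.31 over a median of 4.93 to 6.75 in Ctrl cells, from 1.72 over 3.93 to 7.49 in Pac16h, from 0.00 over 4.26 to 6.11 in Pac48h, from 1.84 over 4.70 to 6.20 in Cele2h, from 1.70 over 4.78 to 7.72 in cele16h and from 0.79 over 6.19 to 9.61 in PacCele16h. Cells of all conditions overlapped, and the upper end in PacCele16h lay above every other cell. In mean E-value PacCele16h was 1.32 above Ctrl (6.25 ± 1.58 against 4.93 ± 0.90, SD over cells), and 50 of its 59 cells lay above the Ctrl median. Pac16h was 1.02 and Pac48h 0.82 lower than Ctrl.

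HSPA5 had a different order at the same total per cell, and cele16h came first. The mean was 5.57 ± 1.01 in cele16h, 5.06 ± 1.36 in PacCele16h, 4.60 ± 0.98 in Cele2h, 4.41 ± 0.84 in Ctrl, 4.20 ± 1.11 in Pac48h and 4.15 ± 1.11 in Pac16h. No gap between neighbours in this order exceeded the smaller of their SDs. The difference of cele16h from Ctrl was 1.16, a 2.23-fold higher value on the log2(value + pseudocount) scale, and 55 of 61 cells lay above the Ctrl median. Among the 9655 genes this difference was at percentile 99.0. HSPA5 took a median of 0.0500% of the total of a cell in cele16h, 0.0342% in PacCele16h and 0.0202% in Ctrl. The excess was not seen at the earlier time, since Cele2h was 0.19 above Ctrl and cele16h was 0.97 above Cele2h. The difference in PacCele16h was 0.65 over all its cells, 0.38 in its cells of block 1 and 1.01 in those of block 3.

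HSP90B1 (GRP94, the Hsp90 of the endoplasmic reticulum, chr12:103930107-103953931, plus strand) had the highest level of the members in Ctrl cells, and N is a per-length measure, so the members can be ordered by it. The mean E-values in Ctrl were 6.43 for HSP90B1, 5.72 for PDIA3, 4.93 for HSPA5, 4.92 for SDF2L1 and PDIA6, 4.33 for CALR, 3.80 for XBP1, 3.26 for CANX, 3.01 for PDIA4 and 1.23 for DNAJB9. HSP90B1 ran from 4.39 over a median of 6.39 to 7.58 in Ctrl, from 2.60 over 4.75 to 7.39 in cele16h and from 5.58 over 7.28 to 9.43 in PacCele16h. Every one of the 59 PacCele16h cells lay above the cele16h median, and 57 of 61 cele16h cells lay below the Ctrl median. The deposited differences from Ctrl were -1.62 in cele16h and 0.88 in PacCele16h. HSP90B1 also had its lowest mean in cele16h at the same total, 5.64 ± 0.87 against 5.90 ± 0.55 in Ctrl, a difference of -0.26, where HSPA5 was 1.16 above Ctrl. Its highest mean at the same total was 6.16 ± 0.81 in Pac16h.

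**Figure D3:**
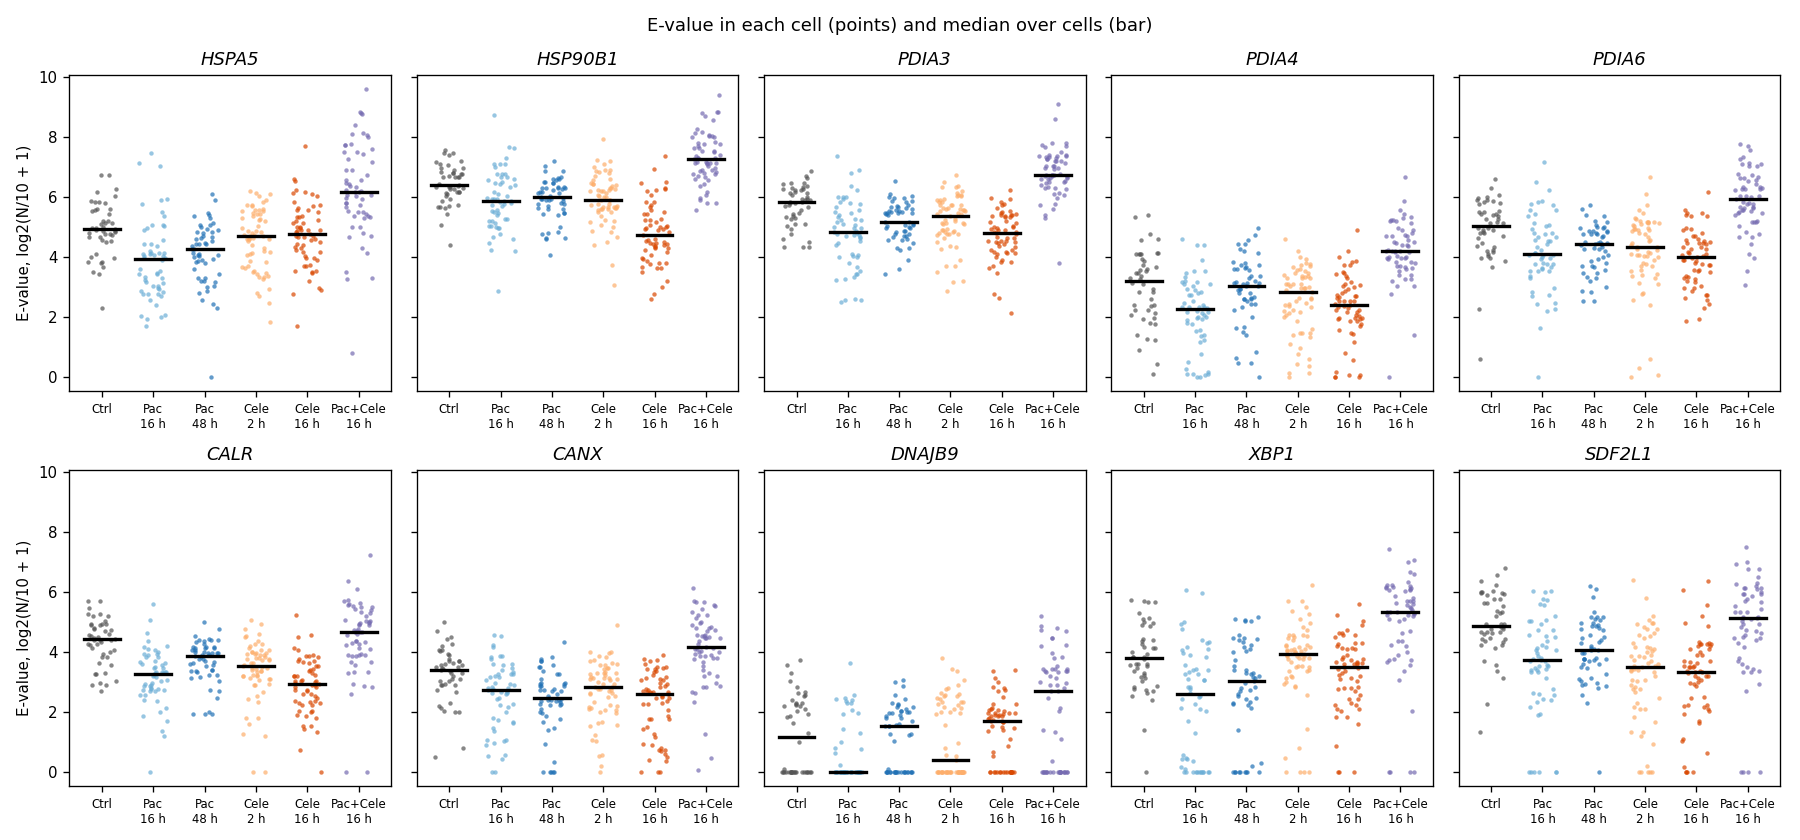
Deposited E-value of each member in every cell, with conditions on the horizontal axis, the E-value on the log2(N/10 + 1) scale on the vertical axis, points for cells and bars for medians over 46 to 63 cells. The PacCele16h median was highest for all 10 members, cells of all conditions overlapped, and DNAJB9 had between 19 and 38 cells at 0 in each condition.

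The means of the 3 disulfide isomerases at the same total spanned 0.54, 0.78 and 0.61 over the conditions for PDIA3, PDIA4 and PDIA6, against 1.42 for HSPA5. PDIA3 (ERp57, which works with calnexin and calreticulin on glycoproteins, chr15:43746394-43773279, plus strand) had a deposited mean of 5.72 ± 0.67 in Ctrl, 4.80 ± 1.13 in Pac16h, 5.18 ± 0.65 in Pac48h, 5.22 ± 0.85 in Cele2h, 4.72 ± 0.82 in cele16h and 6.82 ± 0.81 in PacCele16h. In PacCele16h 53 of 59 cells lay above the Ctrl median, and in cele16h 58 of 61 lay below it. Its differences from Ctrl lay between -0.14 and 0.40 at the same total. PDIA4 (ERp72, chr7:149003062-149028662, minus strand) had deposited means of 3.01 ± 1.24 in Ctrl, 2.15 ± 1.19 in Pac16h, 2.91 ± 1.13 in Pac48h, 2.54 ± 1.12 in Cele2h, 2.33 ± 1.11 in cele16h and 4.19 ± 1.02 in PacCele16h. Its mean in Pac48h was above that in Pac16h by 0.76 as deposited and by 0.69 at the same total. With the 22 Pac48h cells of block 2 alone these were 0.32 and 0.38, within the limit, and with the 31 of block 4 alone 1.06 and 0.91. PDIA6 (P5, an isomerase that also acts on IRE1, chr2:10783391-10837977, minus strand) had a deposited mean of 4.92 ± 1.06 in Ctrl, 4.13 ± 1.34 in Cele2h, 3.96 ± 0.95 in cele16h and 5.91 ± 1.01 in PacCele16h. PDIA6 at the same total was 0.61 higher in cele16h than in Cele2h, and 0.37 higher than in Ctrl. Its span overlaps that of ATP6V1C2 on the opposite strand, also listed. Reads were aligned to transcripts, and whether the exons of these genes share sequence was not examined.

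Over all cells of a condition, the lectins CALR and CANX both lay within the limit of Ctrl at the same total in all 5 treatments. CALR (calreticulin, the soluble calcium-binding lectin, chr19:12938578-12944489, plus strand) ran in deposited E-value from 2.71 over a median of 4.42 to 5.70 in Ctrl, from 0.00 over 2.94 to 5.24 in cele16h and from 0.00 over 4.66 to 7.24 in PacCele16h. Its PacCele16h mean was 0.12 above Ctrl, whereas 30.4% of genes were past the limit there. CALR at the same total was below Ctrl in all 5 treatments, by between 0.06 and 0.48. With the PacCele16h cells of block 1 alone it was -0.68, past the limit, and with those of block 3 alone -0.21. CANX (calnexin, the membrane-bound lectin, chr5:179678628-179731641, plus strand) had deposited means of 3.26 ± 0.91 in Ctrl, 2.25 ± 1.11 in cele16h and 4.08 ± 1.20 in PacCele16h. With the same total CANX was 0.08 above Ctrl in cele16h, 0.18 above in PacCele16h and 0.36 below in Pac48h, again within the limit.

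DNAJB9 (ERdj4, a J-domain protein that holds BiP on IRE1, chr7:108569867-108574850, plus strand) was the lowest member and was at 0 in many cells. It was detected in 54.3% of Ctrl cells (exact Clopper-Pearson 95% interval 39.0 to 69.1, counting error only), 32.1% of Pac16h cells (20.3 to 46.0), 60.4% in Pac48h, 50.8% in Cele2h, 68.9% in cele16h (55.7 to 80.1) and 64.4% in PacCele16h. The reads behind a cell are unknown, and Pac16h cells had a median of 6126 genes detected against 6630 in Ctrl. The mean at the same total was 0.96 ± 1.01 in Ctrl, 0.56 ± 0.97 in Pac16h, 1.82 ± 1.43 in cele16h and 1.42 in PacCele16h, whose cells ran from 0.00 over a median of 1.61 to 4.00. The difference of cele16h from Ctrl was 0.86, and 42 of 61 cells lay above the Ctrl median. It was 1.60 as a ratio of linear means, 1.40 with medians and 1.46 with a pseudocount of 1, above the 1.27, 1.27 and 1.20 of HSPA5, so which of the 2 differed more depended on the measure. In PacCele16h it was 0.46, with 0.04 in block 1 and 1.02 in block 3.

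SDF2L1 (a partner of the J-domain proteins ERdj3 and ERdj6 in the BiP cycle, chr22:21642302-21644299, plus strand) was the member lowest relative to Ctrl under celecoxib on both scales. Its deposited E-value ran from 1.34 over a median of 4.88 to 6.82 in Ctrl, from 0.00 over 3.48 to 6.41 in Cele2h, from 0.00 over 3.32 to 6.37 in cele16h and from 0.00 over 5.12 to 7.50 in PacCele16h. Cells overlapped in all conditions, and 56 of 63 Cele2h cells lay below the Ctrl median. The deposited difference was -1.71 in Cele2h, at percentile 0.5 of all genes, and -1.81 in cele16h. The means at the same total were 4.40 ± 0.98 in Ctrl, 3.71 ± 1.57 in Pac16h, 4.14 ± 1.07 in Pac48h, 3.22 ± 1.52 in Cele2h, 3.77 ± 1.55 in cele16h and 3.68 ± 1.43 in PacCele16h. The Cele2h difference was -1.19 there and, as a ratio of linear means, -0.92. Those of Pac16h (-0.70), cele16h (-0.63) and PacCele16h (-0.72) were -0.40, -0.31 and -0.50 as ratios of linear means, within the limit. In block 3 alone the PacCele16h difference was -0.22.

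XBP1 (the transcription factor whose mRNA IRE1 splices, chr22:28794555-28800597, minus strand) was by mean E-value the member lowest relative to Ctrl in Pac16h on both scales. Its deposited E-value ran from 0.00 over a median of 3.80 to 5.72 in Ctrl, from 0.00 over 2.58 to 6.07 in Pac16h, from 0.00 over 3.02 to 5.16 in Pac48h, from 0.00 over 3.93 to 6.23 in Cele2h, from 0.00 over 3.49 to 5.61 in cele16h and from 0.00 over 5.33 to 7.45 in PacCele16h. In Pac16h 12 of 56 cells and in Pac48h 9 of 53 cells were at 0, against 1 of 46 in Ctrl. Detection was 78.6% in Pac16h (65.6 to 88.4), 83.0% in Pac48h and 97.8% in Ctrl (88.5 to 99.9). The difference of Pac16h from Ctrl at the same total was -0.97, at percentile 2.0 of all genes. As a ratio of linear means it was -0.32, within the limit, and DNAJB9 (-0.60) and SDF2L1 (-0.40) were lower. With medians DNAJB9 was at -0.68 and XBP1 at -0.66. The celecoxib arms lay on the other side, 0.35 above Ctrl in Cele2h, 0.69 in cele16h and 0.49 in PacCele16h at the same total. XBP1 had the largest difference of the members between PacCele16h and Pac16h at the same total, at 1.46 (percentile 99.8), and 1.33 among block 1 cells of both conditions.

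Adding celecoxib to 16 h of paclitaxel left 4 members higher past the limit at the same total, HSPA5 (0.91), PDIA4 (0.78), DNAJB9 (0.86) and XBP1 (1.46), beside 9.57% of all genes. Within block 1, the only one that holds both conditions, 3 members were past it. Adding paclitaxel to 16 h of celecoxib left 0 members past the limit in either direction, beside 5.03% of all genes higher and 4.39% lower, and the same count was found within block 3. The members' differences there ran from -0.51 for HSPA5 to 0.44 for HSP90B1. Between the times of paclitaxel, PDIA4 (0.69) and DNAJB9 (0.64) were higher past the limit at 48 h, beside 6.18% of all genes. Each depended on the block, with PDIA4 at 0.38 in block 2 and DNAJB9 at 0.47 in block 4, within the limit, and at 0.91 in block 4 and 0.87 in block 2. Between the times of celecoxib, HSPA5 (0.97), PDIA6 (0.61) and DNAJB9 (0.74) were higher at 16 h, beside 7.88%. Within block 4, which holds Ctrl and 31 Pac48h cells, PDIA4 was 0.65 above and XBP1 0.76 below Ctrl, the 2 members past the limit there.

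The other genes of the pathway differed by list. Of 12 genes of the ATF4 and CHOP arm 10 were listed. With the same total 7 of them were above the limit and 0 below in both Cele2h (median 1.02) and cele16h (median 1.51). Above it were 0 and 3 members, and 3.31% and 7.37% of all genes. ASNS, the asparagine synthetase gene, was 2.85 above Ctrl in Cele2h and 2.21 in cele16h. DDIT3, which encodes CHOP, was 1.96 and 2.22 above, CHAC1, a glutathione-degrading enzyme, 2.04 and 2.00, and TRIB3, a pseudokinase, 1.43 and 2.99. In PacCele16h 5 of the 10 were above and 1 below (median 0.55), beside 5.96% and 5.80% of all genes. In Pac16h 0 were above and 1 below (median 0.00), beside 1.40% and 10.0%. In Pac48h 3 were above, namely ASNS, DDIT3 and CHAC1, and 0 below (median 0.34), beside 3.28% and 5.78%. As deposited, 5, 6 and 8 of these genes were above the limit in Cele2h, cele16h and PacCele16h. The shares of all genes were 1.12%, 0.383% and 30.4%. In Pac48h 2 of them, ASNS and CHAC1, were above it as deposited and 0 below, beside 0.922% and 26.6% of all genes. At the same total, genes of the ATF4 arm were above the limit at 2 h of celecoxib, when 0 members were. HSPA5, DNAJB9 and XBP1 were above it at 16 h. Of the ATF6 and XBP1 targets described next, HERPUD1 and ERP29 were also above it at 2 h, and 2 were below. The cells of Cele2h, cele16h and Ctrl shared no block, so time and block cannot be told apart here.

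All 20 genes of the list of further ATF6 and XBP1 targets were listed, and their medians at the same total lay between -0.07 and 0.16 in the 5 treatments. In cele16h 2 were above and 2 below the limit, beside 7.37% and 7.95% of all genes. HERPUD1, a ubiquitin-like protein of endoplasmic reticulum-associated degradation, had differences of -0.99 in Pac16h, -0.28 in Pac48h, 0.64 in Cele2h, 1.26 in cele16h and 0.84 in PacCele16h, the same signs as XBP1 in all 5. CRELD2 was 0.89 below Ctrl in Cele2h, 0.65 in cele16h and 0.81 in PacCele16h, the same sign as SDF2L1. MANF, a secreted factor of the same lumen, was 0.91 below Ctrl in cele16h. ERP29 was 0.90 above in Cele2h and 0.79 in cele16h. As deposited, 7 of the 20 were below the limit in cele16h and 12 above it in PacCele16h. Of all genes, 43.9% and 30.4% were.

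Other lists of the secretory pathway were read at the same total. The counts stand beside shares of all genes in Pac16h, Pac48h, Cele2h, cele16h and PacCele16h. These were 1.40%, 3.28%, 3.31%, 7.37% and 5.96% above the limit, and 10.0%, 5.78%, 8.12%, 7.95% and 5.80% below it. Of 6 stress sensor genes listed, ATF6 alone was past the limit, at 0.61 in cele16h. Among 9 calcium-handling genes, RCN1 and CALU, both calcium-binding proteins of the lumen, were 1.14 and 1.12 above Ctrl in cele16h, and 3 of the 9 were above the limit there and in PacCele16h. Of 12 KDEL receptor and coat genes, 3 were above the limit in PacCele16h, SEC31A among them at 0.67, and 3 below it in Pac16h, SEC13 among them at -0.95. Of 13 other disulfide isomerases and oxidases, ERP44 was above it in PacCele16h (0.64), and TMX2 (-1.02) and TXNDC5 (-0.71) below it in Pac16h. Of 23 translocon and oligosaccharyltransferase genes, 2 were above and 1 below the limit in cele16h, DDOST at 0.78 and SEC11A at -0.97 among them, with a median of -0.09, and STT3A was 0.98 below Ctrl in Pac16h. In a list of 9 calnexin cycle and glycan trimming genes, SIL1 was 0.88 above Ctrl in Pac48h. SIL1 is the exchange factor of BiP rather than a part of that cycle. Of 16 genes of endoplasmic reticulum-associated degradation, 3 were below the limit in Pac16h, UBE2J2 among them at -0.95, and HERPUD1 alone was above it in cele16h. The cytosolic heat shock proteins had medians below 0 in all 5 treatments. Of 14 listed, 5, 6, 5, 4 and 3 were below the limit in Pac16h, Pac48h, Cele2h, cele16h and PacCele16h, with at most 1 above, beside 10.0%, 5.78%, 8.12%, 7.95% and 5.80% of all genes below. HSPA8, the constitutive Hsp70 of the cytosol, was 1.49 below Ctrl in Pac16h, 1.22 in Cele2h and 1.14 in PacCele16h but 0.13 below in cele16h.

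**Figure D4:**
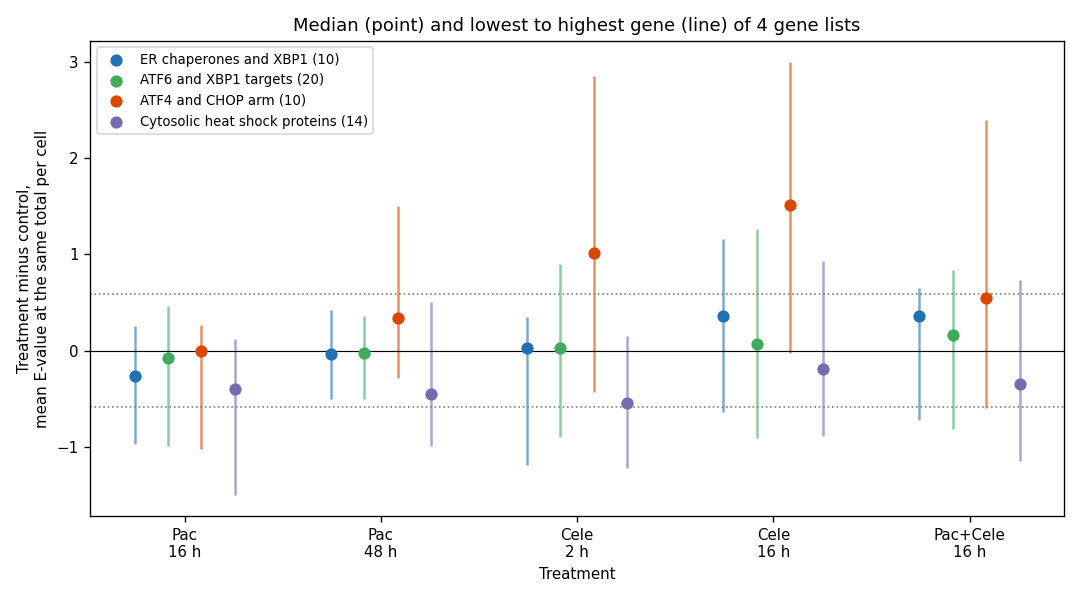
Difference of each treatment from Ctrl in mean E-value at the same total per cell (log2 scale, vertical axis) for the 10 members and 3 gene lists; points are medians over genes, lines run from the lowest to the highest gene, and dotted lines mark log2 of 1.5. The ATF4 and CHOP arm had medians of 1.02 in Cele2h and 1.51 in cele16h, while the members had medians of 0.03 and 0.36.

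Cells of 1 condition varied, and some members varied together. Pearson's r over the cells of a condition, at the same total, was averaged over the 6 conditions as a description. The cells of a condition are 1 sample and the rescaling ties their genes to 1 total. Over the 45 pairs of members the mean r had a median of 0.16 and ran from -0.06 (PDIA6 with CANX) to 0.50 (HSP90B1 with PDIA3). HSPA5 had 0.39 with PDIA3 and 0.37 with HSP90B1, and HSP90B1 had 0.35 with PDIA6. The r of HSP90B1 with PDIA3 was between 0.36 and 0.63 in the 6 conditions. Among genes detected in at least 50% of cells of every condition, the 3 with the highest mean r were taken for each member, and members held 12 of these 30 places. PPIB, the cyclophilin of the endoplasmic reticulum, held another 3, beside HSPA5 (0.31), HSP90B1 (0.39) and CALR (0.26). For HSPA5 the median r over 5359 genes was 0.00 and the 95th percentile 0.12.

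The mean r of XBP1 with the other members was between 0.01 and 0.14. In Pac16h the r of XBP1 was 0.43 with HSPA5, 0.41 with PDIA4 and 0.39 with PDIA3, each the highest of the 6 conditions. With PDIA6, HSP90B1 and DNAJB9 the highest r was in Ctrl (0.28), cele16h (0.23) and PacCele16h (0.25) instead. The genes most like XBP1 by mean r were SARS (0.30), SLC3A2 (0.30) and ATF4 (0.30), that is, seryl-tRNA synthetase, an amino acid transporter subunit and the transcription factor of the PERK arm. The r of XBP1 with SLC3A2 was between 0.25 and 0.39 in the 6 conditions. The gene most like SDF2L1 was CRELD2 (0.27), with r between 0.00 and 0.49. For DNAJB9 the highest was PHC3 (0.25), and it had no member among its 3.

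**Figure D5:**
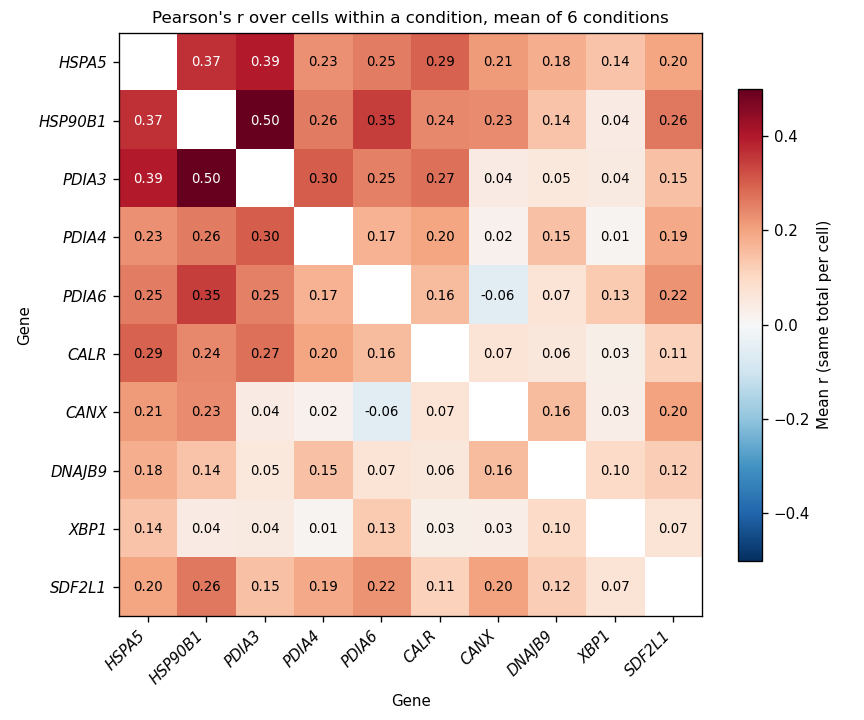
Pearson's r between members over the cells of a condition, averaged over the 6 conditions (46 to 63 cells each, E-values at the same total per cell), with genes on both axes and r as the colour. The pair HSP90B1 and PDIA3 had the highest value, 0.50, and the row of XBP1 ran from 0.01 to 0.14.

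Profiles over the 5 differences from Ctrl at the same total gave other neighbours. The gene closest to HSPA5 was NCK1, an adaptor protein, with a root mean square distance of 0.08 against a median of 0.66 over the genes compared, and differences of 0.22 in Cele2h, 1.20 in cele16h and 0.57 in PacCele16h. The gene closest to PDIA6 was HYOU1, the Hsp110 of the endoplasmic reticulum (distance 0.06), with 0.34 in cele16h and 0.23 in PacCele16h. No gene was as close to XBP1, for which WARS, tryptophanyl-tRNA synthetase, came first at 0.28, with -0.99 in Pac16h and 0.64 in cele16h. WARS was at 0.80 in Cele2h and 0.13 in PacCele16h, where XBP1 was at 0.35 and 0.49. The gene closest to SDF2L1 was UBL7 (0.10), with -1.20 in Cele2h.

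The promoter matches and the levels were set side by side as a description. Of the 6 members with ERSE, 2 were above the limit in cele16h at the same total (HSPA5 and XBP1) and 1 in PacCele16h (HSPA5). Their medians were 0.23 and 0.25, and 7.37% and 5.96% of all genes were above the limit. XBP1 was below it in Pac16h. Of the 7 other listed genes with ERSE, 0 were above it in any of the 5 treatments, with medians of -0.24 in cele16h and 0.10 in PacCele16h. Below it were 1, 0, 2, 1 and 1 of them in Pac16h, Pac48h, Cele2h, cele16h and PacCele16h. At such shares of all genes, 0 of 7 above the limit does not set these genes apart. DNAJB9, with no match in its window, was above the limit in cele16h, and SDF2L1, with ERSE-II, was below it.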

How the data were processed

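Single cells of 6 conditions were measured by Smart-seq2 on the Fluidigm C1. Per the study's methods and processing notes, Trim Galore, Bowtie2 and RSEM 1.3.0 gave TPM against hg38 transcripts (GENCODE version 28) and 3 spike-in RNAs. The authors divided each cell's TPM by its highest spike-in, dropped cells poor in housekeeping genes and listed genes found in more than 30% of a condition's cells. They deposited log2 values, log2(N/10 + 1), with 3 decimals. Reads per cell and strand are not given in the sources used here, so precision is described by the genes detected. The deposited cell states were not used.

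N was recovered from E. The second scale multiplied each cell to the same total N over listed genes before E was taken again. With 1 sample per condition no test, p-value or SE was made. The rescaling and the call of a difference past the limit were tested on simulated data, with changes larger than most given here. Smaller changes and genes as low as DNAJB9 were not simulated, nor were the motif, correlation and profile steps. The members and lists were chosen with earlier results of these data known. All members are named, and list genes past the limit in a treatment at the same total, up to 4 per list, and the 3 genes most like each member by each measure. The 7 other genes with ERSE are counted only. Alternatives were the same total, ratios of linear means, medians, a pseudocount of 1, stricter detection, single blocks, and cells left out by notes or gene number. Combinations of the same total with these were chosen after seeing the data. GENCODE version 44 gave the hg38 coordinates. HSPA5, HSP90B1, PDIA3 and XBP1 have annotated pseudogenes, none of them listed. Intervals came from scipy 1.17.1 and figures from matplotlib 3.10.9, with pandas 2.3.3, numpy 2.4.6 and Python 3.11.15.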

Additional observations from a re-analysis of the deposited data

Results flagged for a closer look

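For 7 of the 10 members the deposited effect of 16 h of celecoxib had opposite signs without and with paclitaxel, past the limit in both (cele16h minus Ctrl, then PacCele16h minus Pac16h). It was -1.62 and 1.42 for HSP90B1, -1.01 and 2.02 for PDIA3, and -0.68 and 2.04 for PDIA4. It was -0.96 and 1.74 for PDIA6, -1.46 and 1.28 for CALR, -1.01 and 1.55 for CANX, and -1.81 and 1.25 for SDF2L1. Of all 9655 genes, 37.6% met the same condition. Each condition was 1 sample, and the difference between the effects was not tested. The total N of a cell moved the same way. It was 0.348 times Ctrl in cele16h, and rose from 0.504 times Ctrl in Pac16h to 1.40 times in PacCele16h. Its part in the result was not tested. At the same total per cell none of the 7 genes was past the limit in opposite directions.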

How the results depend on the processing

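The spike-in scaling decided most counts. With the same total per cell the members' median difference was -0.26 in Pac16h, 0.36 in cele16h (reversed), 0.41 for PacCele16h against Pac16h, -0.071 for PacCele16h against cele16h (reversed) and 0.38 for cele16h against Cele2h. The members below the limit numbered 2 in Pac16h, 0 in Pac48h, 1 each in Cele2h, cele16h and PacCele16h, and 0 for cele16h against Cele2h. Those above it numbered 3 in cele16h, 1 in PacCele16h, 4 for PacCele16h against Pac16h, 0 for PacCele16h against cele16h, 2 for Pac48h against Pac16h and 3 for cele16h against Cele2h. The signs of 14 single values turned, to 0.033 for PDIA6 in Pac16h, to 0.35 for PDIA3, 0.43 for PDIA4, 0.37 for PDIA6 and 0.084 for CANX in cele16h, to -0.077 for HSP90B1, -0.045 for CALR and -0.027 for SDF2L1 in PacCele16h against Pac16h, and to -0.51 for HSPA5, -0.055 for PDIA6, -0.27 for CALR, -0.40 for DNAJB9, -0.20 for XBP1 and -0.088 for SDF2L1 in PacCele16h against cele16h. On the deposited scale, 5 members were below the limit in Cele2h with a ratio of linear means and with a pseudocount of 1. Above it in Pac48h against Pac16h were 2 with linear means, 3 with medians, 5 with a pseudocount of 1, and 2 without the 10% of cells with fewest genes, with block 2 alone and with block 4 alone. In cele16h against Cele2h, 1 was above with medians and 1 with a pseudocount of 1, and 2 were below with a pseudocount of 1 and without those cells. The counts at the same total were also combined with each second choice. HSPA5, DNAJB9 and XBP1 were above the limit in cele16h under every one, at no less than 1.13, 0.82 and 0.66. None of these choices could vary the block, since all 61 cele16h cells lay in block 3 and all 46 Ctrl cells in block 4. In PacCele16h at the same total the means of HSPA5, DNAJB9 and XBP1 were higher in block 3 than in block 1. They were 5.42 against 4.80, 1.99 against 1.00 and 3.99 against 3.67. With linear means 1 member was below in Pac16h (DNAJB9 at -0.60, where XBP1 and SDF2L1 were within the limit), 0 in cele16h, 0 in PacCele16h and 1 in PacCele16h against cele16h, and 3 were above in PacCele16h. With medians 1 was above in Pac48h, 3 in PacCele16h and 0 below in cele16h. With a pseudocount of 1, 2 were below in Pac48h, 2 in PacCele16h and 1 in PacCele16h against cele16h, while 3 were above in PacCele16h and 4 in Pac48h against Pac16h. Without the cells with fewest genes 0 were below in cele16h. With block 4 alone 1 was above and 1 below in Pac48h. With block 1 alone PacCele16h had 0 above and 2 below Ctrl and 2 below cele16h, and with block 3 alone it had 3 above and 0 below Ctrl. The cause was not tested. No paired analysis was possible because the numbers in the labels name cells and are shared by no 2 conditions.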
